A study of Mus musculus with 15 samples.

Results

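The CXC chemokines are small secreted proteins, named after the spacing of their conserved cysteines, that attract leukocytes through G protein-coupled receptors. Nucleosome occupancy around the transcription start sites (TSSs) of 9 genes of this family was examined in mouse dendritic cells (DCs) and fibroblasts. The genes, Cxcl1, Cxcl2, Cxcl5, Cxcl9, Cxcl10, Cxcl11, Cxcl12, Cxcl14 and Cxcl16, were found through the RefSeq identifiers of the promoter annotation, and each had 1 promoter among the 25881 promoters listed. Of these, 13559 promoters had a coverage score above 100, and 7 of the 9 genes were among them. Cxcl1, with a score of 93.75, and Cxcl14, with a score of 16.5, lay below this minimum, and their occupancies are given as values without a test.

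The occupancies came from ChIP-MNase-seq, in which large chromatin fragments are enriched with an antibody and then cut to mononucleosomes with micrococcal nuclease (MNase), so that the sequenced fragments report where nucleosomes sit. The 15 sets of values fell into 3 kinds. The first kind comprised 4 pooled sets, each combining 2 replicates of an H3K4me1 (monomethylated histone H3 lysine 4) ChIP, from non-stimulated DCs, DCs stimulated with lipopolysaccharide (LPS, 100 ng/ml) for 1 h, non-stimulated 3T3 fibroblasts, and 3T3 fibroblasts stimulated with tumour necrosis factor alpha (TNF, 5 ng/ml) for 1 h. The second comprised 8 single H3K4me1 libraries from 3T3 fibroblasts, 2 each from non-stimulated control cells, TNF-stimulated control cells, non-stimulated cells with a Brg1/Brm knock-down, and TNF-stimulated knock-down cells. Brg1 and Brm are the alternative ATPases of the BAF chromatin remodelling complex, and they were depleted with retroviral short hairpin RNAs in cells sorted for high GFP. The third comprised 3 libraries from TNF-stimulated 3T3 fibroblasts made with antibodies to RNA polymerase II (pol-II) phosphorylated at serine 7 (S7P, 2 libraries) or serine 5 (S5P, 1 library) of its C-terminal repeat. TNF was given at 5 ng/ml for 1 h in all stimulated fibroblasts. The DCs were differentiated in culture with GM-CSF from bone marrow progenitor lines and the 3T3 fibroblasts are an established line, so neither stands for a tissue, and the extent of the knock-down cannot be read from occupancies.

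As background, Cxcl1, Cxcl2 and Cxcl5 attract neutrophils through Cxcr2, whereas Cxcl9, Cxcl10 and Cxcl11 attract activated T cells through Cxcr3 and are classical targets of interferon. Cxcl12 is a homeostatic ligand of Cxcr4 made by stromal cells, Cxcl16 is a membrane-anchored ligand of Cxcr6, and Cxcl14 is made mainly by epithelia. Several of the inflammatory members are primary response genes of NF-kB, the transcription factor activated by both LPS and TNF, and active promoters typically show a nucleosome-depleted region (NDR) just upstream of the TSS, flanked by positioned nucleosomes.

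Of the 9 genes, 6 lay on chromosome 5 (mm9), in an upstream group of Cxcr2 ligands and a downstream group of Cxcr3 ligands. The TSSs of Cxcl5 and Cxcl1 lay 131.946 kb apart, those of Cxcl1 and Cxcl2 12.654 kb, those of Cxcl9 and Cxcl10 20.81 kb, and those of Cxcl10 and Cxcl11 14.407 kb, with 1424.18 kb between Cxcl2 and Cxcl9. The RefSeq sequences just upstream of 5 of these TSSs (mm9, written 5′ to 3′ on the gene's strand) are shown with the matches to the NF-kB consensus in capitals. Except for the farther match of Cxcl10, these lie between -150 bp and the TSS, the main window in which occupancy is compared. Cxcl9, shown beside Cxcl10, had no full match. Its stretches gggatttcct and agaaattccc, the latter read on the other strand, miss only the last letter of the consensus. The regions are chr5:92777916-92778095 (minus strand) for Cxcl10, chr5:92757106-92757285 (minus strand) for Cxcl9, chr5:91332746-91332896 (plus strand) for Cxcl2, chr5:91320092-91320266 (plus strand) for Cxcl1 and chr5:91188146-91188324 (plus strand) for Cxcl5.
Cxcl10: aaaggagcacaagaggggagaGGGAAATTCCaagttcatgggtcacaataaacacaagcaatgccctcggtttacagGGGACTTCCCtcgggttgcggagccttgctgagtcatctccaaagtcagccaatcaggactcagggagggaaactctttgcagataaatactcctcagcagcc
Cxcl9: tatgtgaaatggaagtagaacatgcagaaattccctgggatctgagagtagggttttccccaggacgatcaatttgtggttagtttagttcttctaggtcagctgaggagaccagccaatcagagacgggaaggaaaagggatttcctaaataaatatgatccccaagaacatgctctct
Cxcl2: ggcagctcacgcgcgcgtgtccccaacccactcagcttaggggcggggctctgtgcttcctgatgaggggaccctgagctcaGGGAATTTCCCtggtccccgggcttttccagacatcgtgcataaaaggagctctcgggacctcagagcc
Cxcl1: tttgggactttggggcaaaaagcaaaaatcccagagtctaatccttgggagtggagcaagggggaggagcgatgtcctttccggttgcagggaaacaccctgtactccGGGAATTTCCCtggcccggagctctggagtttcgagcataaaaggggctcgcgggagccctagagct
Cxcl5: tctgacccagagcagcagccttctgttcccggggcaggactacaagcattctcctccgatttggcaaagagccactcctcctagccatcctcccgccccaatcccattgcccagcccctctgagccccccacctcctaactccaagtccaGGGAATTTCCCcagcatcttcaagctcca
Cxcl1, Cxcl2 and Cxcl5 carried the same palindromic match, GGGAATTTCCC, starting at -72, -98 and -30 bp of their TSSs. Cxcl10 carried GGGAAATTCC at -159 bp and GGGACTTCCC at -103 bp.

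The NF-kB consensus was searched as the letters GGGRNWYYCC, with R for A or G, N for any base, W for A or T and Y for C or T. The search covered both strands of the 250 bp upstream of each TSS, and the strand copies of a palindrome were counted as overlapping. The consensus was found at 5 of the 9 genes (Cxcl1, Cxcl2, Cxcl5, Cxcl10 and Cxcl11) and at 4.04% of 25738 promoters. A TATAAA match on either strand was found at Cxcl9 and Cxcl11, 2 of 9, and at 11.7% of promoters. A pair of the interferon response letters GAAA in tandem, with any 2 bases between them, was found at Cxcl10 and Cxcl14, 2 of 9, and at 3.08% of promoters. Cxcl12 and Cxcl14 were CpG-rich, with GC contents of 69.0% and 62.0% and observed to expected CpG ratios of 0.740 and 0.781 within 200 bp of the TSS, a class holding 48.2% of promoters. A match describes letters in a window and not a bound site.

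The deposited expression values before stimulation placed the genes in different classes. They came from RNA-seq of other samples, as FPKM-type values on a separate scale for each cell type, so ranks among all promoters are given. In DCs, Cxcl2 stood at 26.9 (99.2nd percentile), Cxcl16 at 18.3 (98.8th percentile), Cxcl10 at 3.21 (91.6th percentile), Cxcl1 at 2.04 (86.4th percentile) and Cxcl5 at 1.48 (81.8th percentile). Cxcl9, Cxcl11 and Cxcl12 were listed at 0 in DCs, and Cxcl14 at 0.113. In fibroblasts Cxcl12 stood at 119.4 (98.8th percentile), Cxcl5 at 3.04 (65.1st percentile), Cxcl1 at 1.84 (60.9th percentile) and Cxcl10 at 0.599 (53.9th percentile). Cxcl2 was listed at 0 in fibroblasts, Cxcl9 and Cxcl14 at 0.0806 and 0.130, and Cxcl16 at 0.121 (45.1st percentile). Thus Cxcl12 ranked high in fibroblasts and was listed at 0 in DCs, Cxcl2 ranked high in DCs and was listed at 0 in fibroblasts, and Cxcl16 ranked high in DCs and near the middle in fibroblasts.

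Occupancy was analysed through an NDR ratio, the log2 ratio of the mean occupancy from -150 bp to the TSS over that from -1000 to -500 bp, with 0.1 added to each. A ratio below 0 means fewer nucleosome fragments just upstream of the TSS than farther upstream. Because the deposited occupancies are relative to the surrounding 1 kb, the mean occupancy per promoter was nearly constant within a kind of library and the values report the shape of a profile, not the amount of H3K4me1 or pol-II. The median ratio over promoters above the minimum ranged from -0.91 to -0.36 over the 15 libraries. The share of 10 bp bins with any occupancy ranged from 63.5% to 90.2%, the files hold no read counts, and the correlation of the ratio between replicates of a group across promoters was only 0.237 to 0.388. In the expression columns, all 11 promoters of DC markers such as Itgax and Cd74 ranked higher in DCs, and none of 12 promoters of fibroblast markers such as Col1a1 did. These columns come from RNA-seq of other samples, so they do not check the labels of the occupancy libraries. In the non-stimulated pooled sets the NDR ratio was lower in DCs at 8 of 11 promoters of DC markers. For fibroblast markers above the minimum, it was lower in DCs at 2 of 7 promoters.

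Cxcl10, whose product attracts activated T cells, was the one member with an NDR ratio below 0 in all 15 libraries. Among all promoters above the minimum, 10.6% had a ratio below 0 in all 15. The ratio was -1.51 in non-stimulated and -3.96 in LPS-stimulated DCs, and -1.29 in non-stimulated and -4.06 in TNF-stimulated fibroblasts. Each stimulated pooled set was lower by more than 1 than the non-stimulated set of its cell type. So were 21.0% of all promoters after LPS and 23.4% after TNF. In the single libraries it was -2.20 and -3.37 in non-stimulated control cells, -0.83 and -0.72 in TNF-stimulated control cells, -0.90 and -0.75 in non-stimulated knock-down cells, and -0.98 and -3.12 in TNF-stimulated knock-down cells. Here the control cells had their lower values without TNF and the knock-down cells with it, and the order in control cells was opposite to that of the pooled sets. In the pol-II libraries the ratio was -3.69 and -1.53 with S7P and -3.57 with S5P. All 3 lay below the TNF-stimulated control cells. They also lay above the pooled TNF-stimulated fibroblasts, at -4.06, but this order depends on the scale of the occupancies. The window was empty in the first S7P library and the S5P library, and held 0.00692 in the pooled set. With occupancies scaled by the mean of each library, the S5P library gave -3.61 and the pooled set -3.45. Both S7P libraries lay below both TNF-stimulated control libraries at 16.7% of all promoters.

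**Figure D1:**
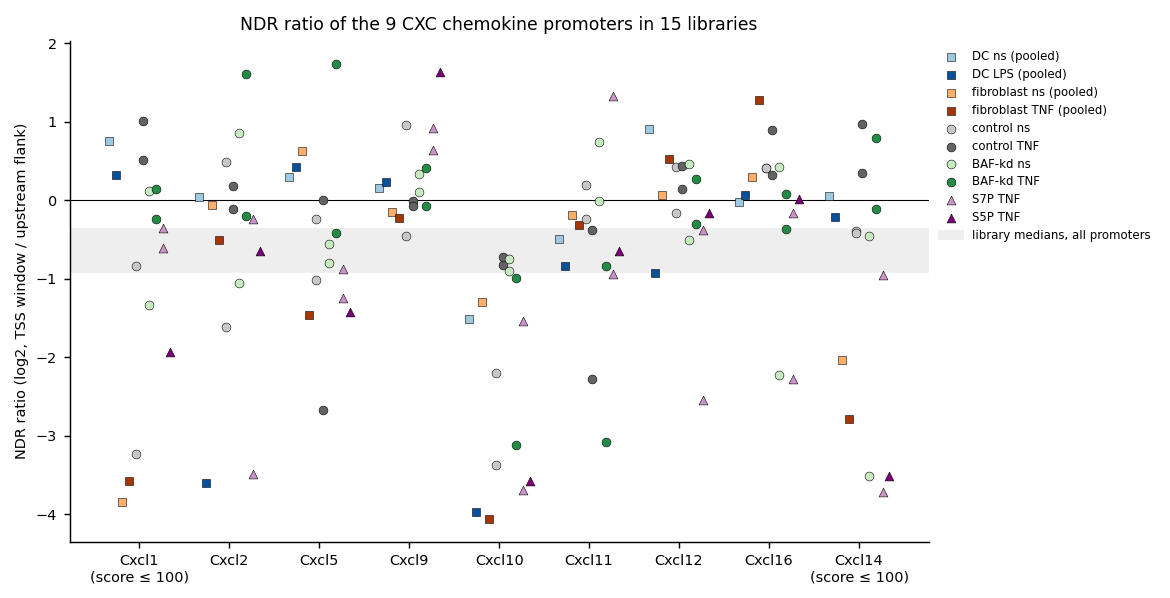
NDR ratio (log2, vertical axis) of each of the 9 genes in each of the 15 libraries, grouped by condition, each point being 1 library. Cxcl10 lies below 0 in every library, from -4.06 to -0.72, whereas Cxcl9 and Cxcl16 lie above 0 in most.

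The profile of Cxcl10 shows where the fragments were missing. Mean occupancy over the 150 bp upstream of the TSS was 0.59 in non-stimulated and 0.02 in LPS-stimulated DCs, and 0.63 and 0.01 in non-stimulated and TNF-stimulated fibroblasts, while the region farther upstream stayed between 1.68 and 1.87. In the 80 bp centred on the site at -103 bp, occupancy was below the promoter's mean in 15 of 15 libraries, with a lowest value of 0%, a median of 26.1% and a highest value of 99.5% of that mean, and 6 libraries had no fragment there. Around the site at -159 bp it was below the mean in 13 of 15, from 0% to 164% with a median of 40.2%. Occupancy around the sites in capitals above was thus mostly below the promoter's mean, in every library at the nearer one. No share over all promoters was computed for these positions. The median NDR ratio of all promoters was itself below 0 in every library, so these values are not particular to the sites. Just downstream, the highest occupancy within 250 bp of the TSS lay at a median of 105 bp (65 to 245 bp), and in 13 of 15 libraries it was within 50 bp of that median. As many libraries agreed at 15% of promoters.

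The patterning level gives how far a whole profile follows the mean of active promoters, as the sum over bins of the centred mean profile times the centred occupancy, with higher values for a closer likeness. That of Cxcl10 was above 0 in 14 of 15 libraries, from -1.03 in a non-stimulated knock-down library to 15.01 in LPS-stimulated DCs, with a median of 8.22. None of the 7 members above the minimum was above 0 in all 15, as were 10.1% of all promoters.

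**Figure D2:**
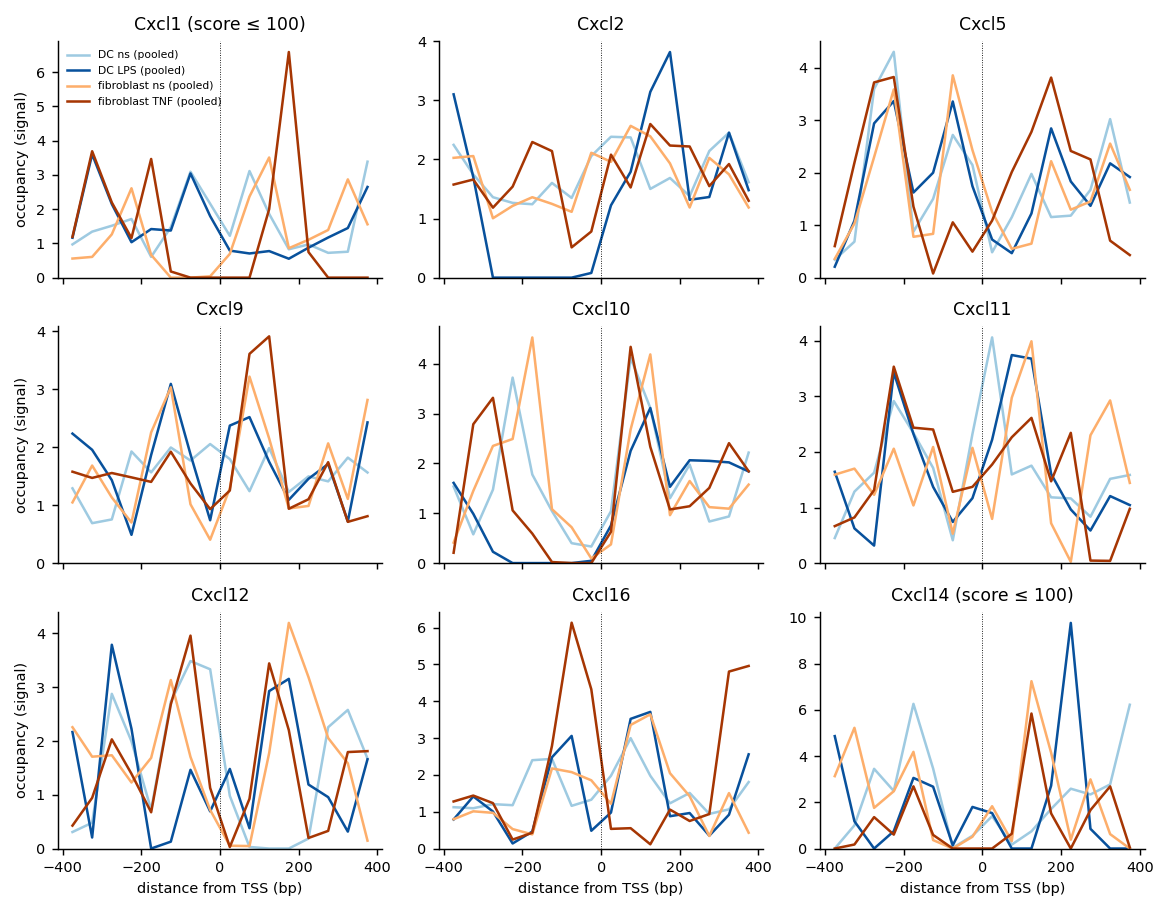
Occupancy (deposited signal relative to the surrounding 1 kb, means of 50 bp blocks) against distance from the TSS (bp) for the 9 genes in the 4 pooled sets, with a separate vertical scale per gene. In Cxcl2 the LPS set and in Cxcl10 both stimulated sets run at or near 0 just upstream of the TSS, where the ratios are -3.60, -3.96 and -4.06.

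Cxcl2, a neutrophil attractant made early by LPS-stimulated phagocytes, had a ratio of 0.05 in non-stimulated DCs and -3.60 after LPS, the lowest of its 15 values. Occupancy over the 150 bp upstream of the TSS was 1.67 before and 0.03 after LPS, and no fragment lay in the 80 bp around the NF-kB match at -98 bp after LPS, against 84.7% of the promoter's mean before. In fibroblasts the ratio was -0.05 without and -0.51 with TNF, and occupancy in the window was 1.49 and 1.14. The profile of Cxcl2 in DCs thus went from no dip upstream of the TSS to an emptied one after LPS, and that in fibroblasts stayed nearer to the flank level. The patterning level in DCs was -0.72 before and 20.1 after LPS. In the single libraries the ratio was -1.62 and 0.49 in non-stimulated and 0.18 and -0.11 in TNF-stimulated control cells, and 0.86 and -1.05 in non-stimulated and -0.20 and 1.62 in TNF-stimulated knock-down cells. These groups overlapped. It was -0.23 and -3.48 with S7P and -0.64 with S5P.

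Cxcl5, a Cxcr2 ligand with lower ranks than Cxcl2 in DCs and Cxcl12 in fibroblasts, had ratios of 0.30 and 0.43 in non-stimulated and LPS-stimulated DCs, and 0.63 and -1.46 in non-stimulated and TNF-stimulated fibroblasts. Only the TNF-stimulated set showed a dip among the 4 pooled sets. Around the match at -30 bp, occupancy was 131%, 120% and 182% of the promoter's mean in the non-stimulated DCs, the LPS-stimulated DCs and the non-stimulated fibroblasts, and 41.4% in the TNF-stimulated fibroblasts. The single libraries gave ratios of -1.01 and -0.24 without and 0.00 and -2.67 with TNF in control cells, and of -0.79 and -0.56 without and -0.42 and 1.75 with TNF in knock-down cells. In control cells the non-stimulated values thus lay within the range of the stimulated ones. In knock-down cells they lay below both, an order whose share over all promoters was not counted. With S7P the ratio was -0.87 and -1.25, and with S5P -1.43, all below 0. The pol-II libraries held 53.2%, 31.4% and 6.76% of the promoter's mean around the match, below the mean in 3 of 3. No share over all promoters was computed for this position.

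The position of the highest occupancy was taken upstream and downstream of the TSS for every gene. The upstream position of Cxcl5 recurred in the most libraries and is given here for that reason. The highest occupancy from -400 to -150 bp lay at a median of -255 bp, from -335 to -235 bp, within 50 bp of that median in 14 of 15 libraries. As many agreed at 5.63% of promoters. The pol-II libraries covered all bins of Cxcl5 (100% in 3 of 3), whereas the single H3K4me1 libraries covered 61.0% to 87.0%. At the other members above the minimum, the lowest pol-II coverage ran from 40.5% (Cxcl11) to 92.5% (Cxcl12).

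**Figure D3:**
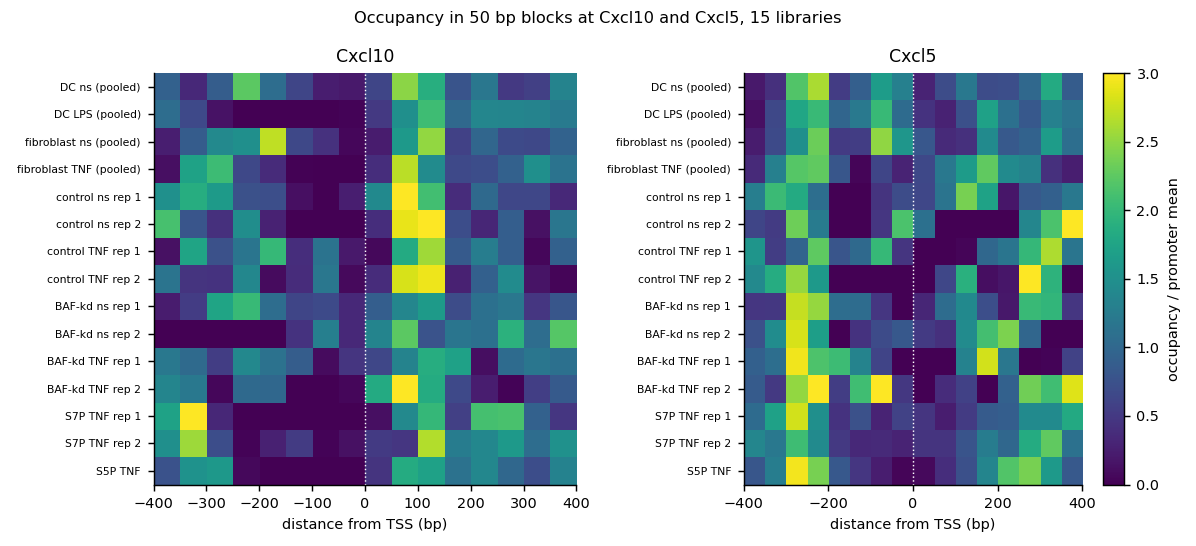
Occupancy of Cxcl10 and Cxcl5 relative to the promoter's mean (colour) in 50 bp blocks from 400 bp upstream to 400 bp downstream of the TSS (horizontal axis), with 1 row per library. Cxcl10 has an empty or weak stretch just upstream of the TSS and a strong block near 105 bp downstream, and Cxcl5 a recurrent block near -255 bp.

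Cxcl1, the neutrophil attractant neighbouring Cxcl2, lay just below the coverage minimum. Its ratio was 0.76 and 0.32 in non-stimulated and LPS-stimulated DCs and -3.84 and -3.57 in non-stimulated and TNF-stimulated fibroblasts. The pooled fibroblast sets had no fragment around the NF-kB match at -72 bp, and the DC sets had 183% and 161% of the promoter's mean there. The single fibroblast libraries did not all show this: the ratio was -0.83 and -3.22 in non-stimulated and 1.02 and 0.51 in TNF-stimulated control cells, -1.33 and 0.12 in non-stimulated and -0.23 and 0.15 in TNF-stimulated knock-down cells. The single libraries thus lay on both sides of 0, 4 of 8 of them below it. The pol-II libraries gave -0.35 and -0.61 with S7P and -1.94 with S5P.

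Cxcl9 and Cxcl11, the Cxcr3 ligands that neighbour Cxcl10, had higher ratios than it in most libraries. For Cxcl9 the ratio was 0.16 and 0.24 in non-stimulated and LPS-stimulated DCs and -0.15 and -0.23 in non-stimulated and TNF-stimulated fibroblasts. In the 8 single libraries it ran from -0.45 to 0.96 with a median of 0.05, and in the pol-II libraries it was 0.64 and 0.92 with S7P and 1.64 with S5P. It had the smallest spread within groups, an SD of 0.485, against 1.03 for Cxcl10 and 1.48 for Cxcl2. For Cxcl11 the ratio was -0.50 and -0.84 in the DC sets and -0.18 and -0.32 in the fibroblast sets. It was slightly lower with stimulation in both, by differences at the 38.3rd and 48.1st percentile of all promoters. Both were smaller than its SD within groups, 1.21, and from -100 to 50 bp the TNF difference was 0.12. In single libraries the ratio of Cxcl11 was -0.24 and 0.19 without and -0.38 and -2.27 with TNF in control cells, and -0.01 and 0.75 without and -0.83 and -3.08 with TNF in knock-down cells. All 4 stimulated libraries lay below all 4 non-stimulated ones at Cxcl11, 1 of 7 members, as at 1.92% of all promoters, and at 0 of 7 members they lay above, as at 0.966%. With S7P it was 1.33 and -0.93, and with S5P -0.65. The Cxcl11 row is annotated from a non-coding RefSeq entry, and a row with no symbol matched starts 19 bp away, so both describe nearly the same bins.

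Cxcl12, the Cxcr4 ligand, had a ratio of 0.92 in non-stimulated DCs and -0.92 after LPS, with window occupancies of 3.18 and 0.76 and patterning levels of -14.7 and 10.9. In fibroblasts, where its expression ranked high, the ratio was 0.06 without and 0.53 with TNF. The emptier stretch there lay across the TSS: the lowest mean over 150 bp was centred at 40 bp without and 30 bp with TNF, with occupancies of 0.184 and 0.579, and the window from -100 to 50 bp gave ratios of -1.01 and -0.05. In the 8 single libraries it ran from -0.50 to 0.46 with a median of 0.21, and in the pol-II libraries it was -0.38 and -2.54 with S7P and -0.16 with S5P. The S7P replicates were thus far apart, 1 within and 1 below the range of the single H3K4me1 libraries.

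Cxcl16, the transmembrane ligand of Cxcr6, starts 361 bp from the divergent gene Zmynd15, so its upstream flank lies within 1000 bp of another start site. Its ratio was -0.02 and 0.06 in the DC sets, and 0.30 without and 1.28 with TNF in the fibroblast sets. In single libraries it was 0.41 and 0.41 without and 0.32 and 0.90 with TNF in control cells, and 0.42 and -2.22 without and -0.36 and 0.08 with TNF in knock-down cells. It was -2.27 and -0.16 with S7P and 0.02 with S5P. Cxcl16 was below 0 in 5 of 15 libraries, the fewest of the 9. Of the 15 libraries, 13 came from fibroblasts, where its expression stood at the 45.1st percentile. Only the DC sets came from cells in which its expression ranked high. Cxcl14, the low-coverage epithelial chemokine, had ratios of 0.06 and -0.21 in the DC sets and -2.03 and -2.79 in the fibroblast sets. In its single libraries the ratio ran from -3.51 to 0.97, and in the pol-II libraries it was -3.71, -0.95 and -3.52. From 26.5% to 71.0% of its bins held any occupancy, the lowest range of the 9 genes.

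In order of the median ratio over 15 libraries, Cxcl10 stood at -1.53, Cxcl5 at -0.56, Cxcl14 at -0.42, Cxcl11 at -0.38, Cxcl1 at -0.35, Cxcl2 at -0.20, Cxcl12 at 0.06, Cxcl16 at 0.08 and Cxcl9 at 0.16. From Cxcl5 on, each step to the next gene was smaller than the SD within groups of either gene (0.485 to 1.48). The step from Cxcl10 to Cxcl5, whose SDs were 1.03 and 1.12, was also smaller than these. These SDs give the spread of single libraries within a group and are not errors of a median, so the order was not tested. Cxcl10 was below 0 in 15 of 15 libraries and Cxcl5 in 10 of 15.

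LPS and TNF were compared with no stimulation in the pooled sets to ask which promoters open within 1 h. Each pooled set is a single set of values, so differences have no replicate error and no test, and those past 1 on the log2 scale are counted. After LPS, 3 of 7 members were lower by more than 1 in DCs, against 21.0% of all promoters. These were Cxcl2, with a difference of -3.65 (2.54th percentile of all promoters), Cxcl10, with -2.45 (8.26th percentile), and Cxcl12, with -1.84 (11.9th percentile). None of the 7 was higher by more than 1, as were 14.8% of promoters. The other 4 lay between -0.34 (Cxcl11) and 0.13 (Cxcl5), and the median of the members was -0.34 beside -0.07 over all promoters. With the window moved to 100 bp upstream to 50 bp downstream, only Cxcl2 stayed past 1, at -1.77, and Cxcl10 and Cxcl12 gave -0.78 and -0.95. With a pseudocount of 0.5 Cxcl10 gave -0.97 and 2 of 7 members stayed past 1, since the size of a ratio over a nearly empty window depends on the pseudocount. The low-coverage genes Cxcl1 and Cxcl14 differed by -0.44 and -0.27.

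After TNF, 2 of 7 members were lower by more than 1 in fibroblasts, against 23.4% of promoters, and none was higher by more than 1, against 15.8%. They were Cxcl10, with -2.77 (7.68th percentile), and Cxcl5, with -2.09 (12.3rd percentile). Cxcl16, at 0.98, and Cxcl12, at 0.47, were the highest, and Cxcl2, Cxcl11 and Cxcl9 gave -0.46, -0.13 and -0.08. The median of the members was -0.13, and that of all promoters -0.09. Cxcl10 was thus past 1 in both cell types, Cxcl2 and Cxcl12 in DCs and Cxcl5 in fibroblasts, and the differences between the cell types were not tested. The low-coverage genes Cxcl1 and Cxcl14 differed by 0.27 and -0.76. In the moved window Cxcl5 stayed past 1, at -1.56, Cxcl10 gave -0.67, and Cxcl1 and Cxcl14 gave -2.02 and -3.49.

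Between the non-stimulated cell types, 0 of 7 members differed by more than 1, against 17.2% of promoters above and 22.0% below. The differences, fibroblasts minus DCs, ran from -0.85 (Cxcl12) to 0.34 (Cxcl5), with a median of 0.22 against -0.05 over all promoters. Cxcl2 differed by -0.10, Cxcl10 by 0.22 and Cxcl16 by 0.32, although Cxcl2 and Cxcl16 ranked far apart in expression between the cell types. The low-coverage genes differed more, Cxcl1 by -4.59 and Cxcl14 by -2.09. In the moved window Cxcl12 differed by -1.65, and the median of the members was -0.34.

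**Figure D4:**
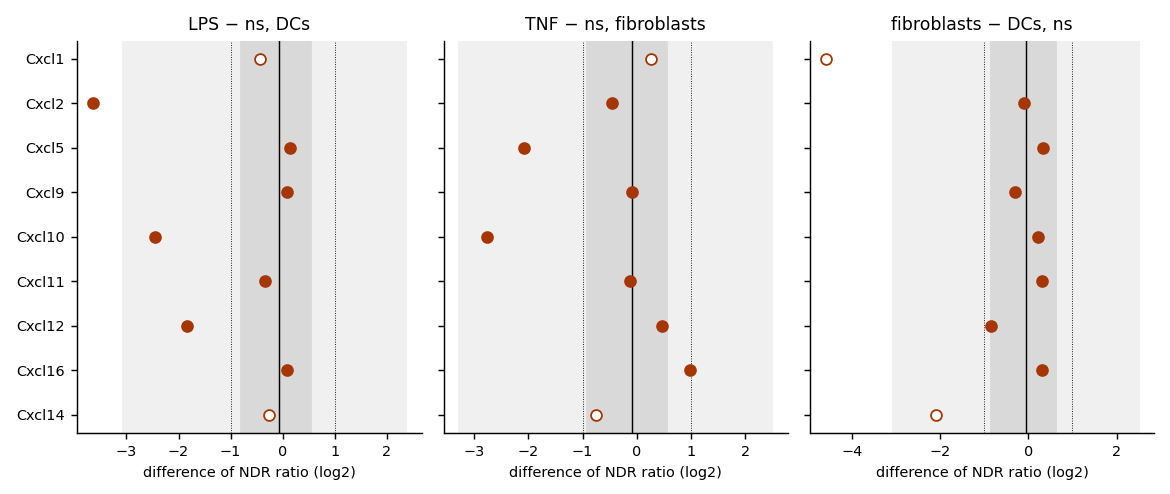
Difference of NDR ratio (log2) between pooled sets for the 9 genes, as LPS minus non-stimulated DCs, TNF minus non-stimulated fibroblasts and non-stimulated fibroblasts minus DCs, with open circles for the 2 genes of low coverage and grey bands for the central ranges of all promoters. Cxcl2 and Cxcl10 lie lowest after LPS, at -3.65 and -2.45, and Cxcl10 and Cxcl5 after TNF, at -2.77 and -2.09.

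The 8 single fibroblast libraries allowed a test of TNF and of the knock-down over replicates, with limma fitted across 13559 promoters. For TNF, 0 of 7 members passed an adjusted p of 0.05, as did 0.0% of all promoters. At an unadjusted p below 0.05 there were 777 promoters, among them 1 member, Cxcl11. The effect on Cxcl11 was -1.81 (SE 0.676, 95% interval -3.43 to -0.20, limma adjusted p = 0.832). With the window from -100 to 50 bp, 0 members had an unadjusted p below 0.05 for TNF. The intervals for Cxcl10 and Cxcl5 did not hold their pooled differences of -2.77 and -2.09. However, the fit averages control and knock-down cells, and the pooled sets hold no knock-down cells. With TNF the mean of Cxcl5 fell in control cells (-0.62 to -1.33) and rose in knock-down cells (-0.67 to 0.66). The mean of Cxcl10 rose in control cells (-2.79 to -0.77) and fell in knock-down cells (-0.83 to -2.05). The fitted effect was 0.39 for Cxcl10 (SE 0.829, 95% interval -1.59 to 2.38, limma adjusted p = 0.979) and 0.31 for Cxcl5 (SE 0.830, 95% interval -1.67 to 2.30, limma adjusted p = 0.988). Cxcl2 gave 0.70 (SE 0.707, limma adjusted p = 0.931) and Cxcl12 0.08 (SE 0.348, limma adjusted p = 1). Cxcl9 and Cxcl16 gave -0.18 and 0.48, and the median of the members was 0.31 beside -0.08 over all promoters. In simulated data of this design, 9% of promoters changed by 2 on the log2 scale and 41% of those changed by 4 were recovered.

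For the Brg1/Brm knock-down, the limma test again called 0 of 7 members and 0.0% of promoters, with 719 promoters and 0 members at an unadjusted p below 0.05. Cxcl16 had the largest effect, -1.03 (SE 0.583, 95% interval -2.43 to 0.36, limma adjusted p = 0.919). Its lowest value, -2.22, was 1 of the 4 knock-down libraries, and the groups overlapped. Cxcl5 gave 0.97 (SE 0.830, limma adjusted p = 0.925), Cxcl2 0.57 (SE 0.707, limma adjusted p = 0.943), Cxcl10 0.34 (SE 0.829, limma adjusted p = 0.971) and Cxcl12 -0.23 (SE 0.348, limma adjusted p = 0.950). Cxcl9 and Cxcl11 gave 0.09 and -0.12. Both first replicates of the knock-down cells carry another mark for the MNase digestion than the other 6 single libraries, so digestion and knock-down partly coincide.

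Whether TNF acted differently with the knock-down was asked with the interaction term. It called 0 of 7 members and 0.0% of promoters, with 827 promoters at an unadjusted p below 0.05, among them 1 member, Cxcl10. Its interaction was -3.24 (SE 1.17, 95% interval -6.15 to -0.32, limma adjusted p = 0.770), from group means of -2.79 ± 0.831 without and -0.77 ± 0.0776 with TNF in control cells and of -0.83 ± 0.109 without and -2.05 ± 1.51 with TNF in knock-down cells (SD, n = 2 each). The stimulated and non-stimulated values of Cxcl10, 2 against 2, did not overlap within either cell population, and their order was reversed between them, as at 5.65% of all promoters. In knock-down cells the nearest values, -0.98 and -0.90, lay close together. In the 6 libraries with the common digestion mark the interaction was -4.38, with only 1 library left in each knock-down group. The interactions of the other 6 members ran from -1.02 (Cxcl11) to 2.05 (Cxcl5).

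**Figure D5:**
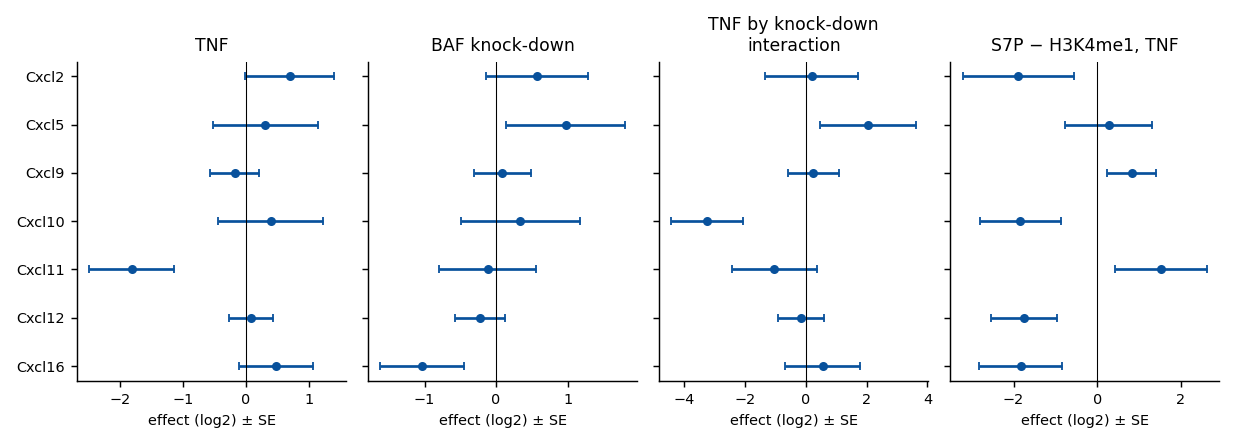
Effects on the NDR ratio (log2, points) with their standard errors (bars) for the 7 members above the coverage minimum, from limma fits for TNF, the BAF knock-down, their interaction, and S7P against H3K4me1. Cxcl11 for TNF, at -1.81, and Cxcl10 for the interaction, at -3.24, lie farthest from 0 in relation to their errors, and none passes an adjusted p of 0.05.

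The patterning level gave no call among the members either. For TNF, limma called 0 of 7 members and 0.0% of promoters, with 775 promoters and 0 members at an unadjusted p below 0.05, and the largest effect was that of Cxcl2, -3.39 (SE 3.75, limma adjusted p = 0.940). For the knock-down it called 0 of 7 members and 0.00738% of promoters, which is 1 promoter, with 797 promoters and 0 members at an unadjusted p below 0.05. The largest effect was again at Cxcl2, -4.64 (SE 3.75, limma adjusted p = 0.901), and that of Cxcl10 was -4.37 (SE 2.72, limma adjusted p = 0.870).

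The pol-II libraries address nucleosomes on templates that carry polymerase. S7P was compared with H3K4me1 in TNF-stimulated control cells, and since the pol-II libraries were sequenced as pairs and the single H3K4me1 libraries were not, the antibody and the sequencing cannot be told apart. The limma test called 0 of 7 members and 0.0% of promoters, with 1237 promoters and 0 members at an unadjusted p below 0.05. At 4 of 7 members, Cxcl2, Cxcl10, Cxcl12 and Cxcl16, both S7P values lay below both H3K4me1 values, as at 16.7% of all promoters. At 1 of 7, Cxcl9, both lay above, as at 22.1%. The effects were -1.89 for Cxcl2 (SE 1.33, limma adjusted p = 0.704), -1.84 for Cxcl10 (SE 0.973, limma adjusted p = 0.631), -1.75 for Cxcl12 (SE 0.784, limma adjusted p = 0.574) and -1.83 for Cxcl16 (limma adjusted p = 0.642). Cxcl5 gave 0.27 (SE 1.04, limma adjusted p = 0.967), and Cxcl9 and Cxcl11 gave 0.82 and 1.53. The median of the members was -1.75, and that of all promoters 0.14. These sizes rest on single libraries: without the first or the second S7P library the median of the members was -0.76 or -0.27, and the effects ran from -3.52 to -0.27 at Cxcl2, from -2.92 to -0.76 at Cxcl10 and from -2.83 to -0.67 at Cxcl12. With a pseudocount of 0.5 the median was -0.80. The values are also limited by empty bins. In the first S7P library, 40.5% of the bins of Cxcl11, 50.5% of Cxcl16, 55.0% of Cxcl2 and 68.5% of Cxcl9 held any occupancy. This share was 81.0% at Cxcl10, 93.5% at Cxcl12 and 100% at Cxcl5. For the single S5P library, set against the pooled TNF-stimulated fibroblasts with no test, 1 of 7 members was higher by more than 1 (Cxcl9, by 1.87), against 29.1% of promoters, and 1 lower (Cxcl16, by -1.26), against 19.4%. Mean occupancy was 0.97 in the S5P library and 1.62 in the pooled set, so the added 0.1 weighs differently. With occupancies scaled by these means, promoters higher by more than 1 went from 3939 to 3132 of 13559. Those lower went from 2635 to 2702, and 1 member each way remained.

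In the wider stretch from -150 to 100 bp of the TSS, all 3 pol-II libraries lay below both TNF-stimulated control libraries at 3 of 7 members, Cxcl2, Cxcl10 and Cxcl12, as at 10.7% of all promoters. At Cxcl5 it held 47.0%, 38.0% and 24.6% of the promoter's mean in the S7P libraries and the S5P library, against 69.9% and 12.7% in TNF-stimulated control cells. At Cxcl10 it held 30.8%, 33.5% and 46.1%, against 72.7% and 96.9%. For Cxcl5 the 3 pol-II values thus lay between the control values. The low-coverage gene Cxcl1 held 123% and 70.9% with S7P and 13.9% with S5P, against 161% and 181%.

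The wider pathway was described from a list of 30 genes: other CXC ligands, their receptors, and members of the NF-kB and interferon pathways. Of 37 promoters 25 lay above the coverage minimum, and limma called 0 of them in any of the 6 tests. Among 4 other CXC ligands and 3 receptors, 0 differed by more than 1 in either direction in any pooled comparison of stimulation or cell type. Of 9 NF-kB promoters, from 6 genes and with 2 of Nfkb2, 5 were lower and 1 higher after LPS, and 3 lower and 2 higher after TNF. Of 9 interferon pathway promoters, also from 6 genes, 4 were lower and 1 higher after LPS, and 3 lower and 0 higher after TNF. Over all promoters the shares were 21.0% lower and 14.8% higher after LPS, and 23.4% lower and 15.8% higher after TNF. Tnfaip3, an inhibitor of NF-kB signalling, differed by -3.53 after LPS and by 3.25 after TNF, and Nfkbie, another inhibitor, by -1.99 and -2.0. Nfkbie, like Cxcl10, was lower after both stimuli, and Tnfaip3 was lower after LPS and higher after TNF.

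Likeness between profiles was described within the family, and the range of r between arbitrary pairs of promoters was not computed. Over the 4 pooled sets of 200 bins, 800 values, which share libraries and the same scaling, Pearson's r between members ran from -0.174 to 0.185, and no member was among the 10 promoters most like another. The promoter most like Cxcl10 was that of Hadhb (r = 0.499), and that most like Cxcl5 was Oasl1 (r = 0.461). For Cxcl9, Cxcl11, Cxcl12 and Cxcl16 they were Cd52, Tmem234, Mir96 and G3bp2, with r from 0.394 to 0.431. Each of these is the highest r over the promoters above the minimum, so its size cannot be set against the r between members.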

How the data were processed

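Occupancies around 25881 TSSs were taken as the authors deposited them. Per the study's methods, reads were aligned to mm9 with bowtie, excess duplicates were removed, and occupancy in 10 bp bins was normalised by the authors to the fragments in the surrounding 1 kb and averaged over overlapping bins, giving a signal of 200 bins per promoter and library from 1000 bp upstream to 1000 bp downstream. The 4 pooled sets combine 2 replicates each. The promoter annotation deposited by the authors held a coverage score per TSS and FPKM-type expression values from other RNA-seq. Its columns of expression differences upon stimulation, comparisons of the authors' own, were not used. Empty bins were set to 0.

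Here, NDR ratios (pseudocount 0.1) and patterning levels were computed in Python 3.11.15 (numpy 2.4.6, pandas 2.3.3). The patterning template used promoters with expression above 0.02 times the mean before stimulation, inducible promoters included. The ratios and levels of promoters with a score above 100 were tested with limma 3.58.1 (R 4.3.3), with a prior variance following the coverage score and Benjamini-Hochberg adjustment over all 13559 promoters. TNF and the knock-down were additive terms over 8 libraries, and S7P was fitted with them as 5 group means over 10 libraries. Pooled sets and the S5P library were not tested. The fit was tested on simulated data with 100 promoters changed by 2 and 100 by 4 (log2), which gave 1 false call. Libraries of a group are taken as replicates as labelled, and the study describes them as biological replicates. The study gives its sequencing depth as a range over samples, and the depth of each library is not used here. Sequences and motifs came from RefSeq promoters (mm9). All 9 genes were named, with full statistics for those past 1 in a pooled comparison of stimulation, at an unadjusted p below 0.05, or with the largest effect. The members and gene lists were chosen with earlier results of these data known. Alternatives were another pseudocount, window, scaling and coverage minimum, a replicate block, leaving out each library, and, chosen after seeing the data, the 6 libraries with the common digestion mark.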

Additional observations from a re-analysis of the deposited data

How the results depend on the processing

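No member passed an adjusted p of 0.05 under any alternative run. For the 42 member effects fitted, other settings moved 175 estimates, of which 163 kept their direction and 12 reversed (lowest adjusted p 0.525, limma), and leaving out 1 library moved 308, of which 268 kept it and 40 reversed (lowest 0.30). The reversals named below are those of the effects given with full statistics. The window from 100 bp upstream to 50 bp downstream reversed TNF effects at Cxcl5 (-0.32) and Cxcl12 (-0.21), the knock-down effect at Cxcl12 (0.12) and the difference between cell types at Cxcl14 (0.0017). In all, that window changed the sign of the pooled difference at 3 of 9 genes after LPS (Cxcl9, Cxcl14, Cxcl16), 3 after TNF (Cxcl1, Cxcl9, Cxcl11), 3 between cell types (Cxcl10, Cxcl11, Cxcl14) and 2 for S5P (Cxcl5, Cxcl14). In that window the members lower by more than 1 numbered 1 after LPS, 1 after TNF, 1 in fibroblasts against DCs (Cxcl12), and 3 for S5P. A pseudocount of 0.5 reversed S7P at Cxcl5 (-0.16), and the common digestion mark reversed the knock-down effect at Cxcl10 (-0.16). Leaving out 1 library moved the TNF effect from -0.32 to 1.05 at Cxcl5, -0.16 to 1.15 at Cxcl10 and -0.10 to 0.29 at Cxcl12, the knock-down effect from -0.22 to 1.09 at Cxcl10, and S7P from -1.07 to 1.61 at Cxcl5. The Cxcl10 interaction ran from -4.30 to -2.17 and the TNF effect on Cxcl11 from -2.29 to -1.26. The cause of these shifts was not tested.

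The replicate numbers did not pair the libraries (correlations of replicate differences between groups from -0.0077 to 0.020), and with the replicate block 0 members were called. Over all promoters, calls numbered 6 for TNF with a pseudocount of 0.05, 1 with the other window and 3 without the first TNF-stimulated control library, 2 for the knock-down with the other window, and 3 for the interaction and 12 for S7P with no coverage minimum, each against 0. The interaction gave 1 call above a score of 200, and without the first TNF-stimulated control library S7P gave 2 calls and TNF patterning 2. The 1 promoter called for knock-down patterning was lost under the block. The uncovered bins of single libraries limit all values.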
